A study of Homo sapiens with 6 samples.

Results

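The let-7 family is a set of microRNAs (miRNAs) that share a seed and differ by a few bases outside it. Its members on the card were taken by assay name, from hsa-let-7a through hsa-let-7g with the related hsa-miR-98, which makes 8 of the 377 human miRNA assays. They were measured by quantitative PCR in HEK-293FT cells, an established human embryonic kidney line that carries the SV40 large T antigen. There were 3 samples treated with small interfering RNA against TruB1, a pseudouridine synthase of transfer RNA, and 3 control samples whose treatment the labels do not describe further. The sample titles carry a series number from 1 to 3, with 1 control and 1 knockdown sample each. All samples came from this single line, and the labels list Lipofectamine RNAiMAX as the transfection reagent for both groups. Only the miRNA assays and U6 were used here, so neither the level of TruB1 nor markers of the line were checked, and the strength of the knockdown is unknown. Nothing in the labels says that the samples of a group came from separate cultures, so the spread between them may be technical.

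A miRNA is cut from a hairpin, first in the nucleus by DROSHA with DGCR8 and then in the cytoplasm by DICER1, and the strand that is kept guides the silencing complex to messages that match its seed. let-7 miRNAs restrain growth genes such as HMGA2, MYC and the RAS genes, and they accumulate as cells differentiate. The RNA-binding protein LIN28 holds back their maturation by binding the hairpin loop, at a GGAG motif among other contacts. From knowledge of the study outside its labels, it asked about a role of TruB1 in the maturation of let-7.

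The 8 mature sequences are shown because the assays have to tell apart RNAs that differ by 1 or 2 bases from let-7a. They are the assay targets deposited with the ratios, written 5′ to 3′, with the seed (bases 2 to 8) in capitals.
hsa-let-7a: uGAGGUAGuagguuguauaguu
hsa-let-7b: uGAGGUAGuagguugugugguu
hsa-let-7c: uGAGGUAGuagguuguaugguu
hsa-let-7d: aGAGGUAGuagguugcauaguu
hsa-let-7e: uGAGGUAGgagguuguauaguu
hsa-let-7f: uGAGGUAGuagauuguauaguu
hsa-let-7g: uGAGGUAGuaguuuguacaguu
hsa-miR-98: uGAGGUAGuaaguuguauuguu

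All 8 targets are identical to the mature miRNA of that name in RefSeq. The seed is the same in all 8, and no other assay on the card carries it. Of 2370 distinct mature names in the RefSeq table, 11 carry this seed. The other three are let-7i, miR-4458 and miR-4500, which were not analysed here. Counted from 1 at the 5′ end with the base of let-7a first, let-7c differs by A19G, let-7e by U9G and let-7f by G12A. A pair of changes separates each of the others from let-7a, and in miR-98 these are G11A and A19U. let-7b and let-7c also differ from each other by a single base. A stem-loop primer reads the 3′ end of its target, so signal from a close relative cannot be told apart from the named member by these data.

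The 8 mature miRNAs come from 11 hairpins in RefSeq, and the hairpin is the RNA on which maturation acts. let-7a alone has 3 hairpins, on chromosomes 9, 11 and 22, so its assay sums 3 loci. let-7f has 2, on chromosomes 9 and X. Several share a primary transcript: let-7a-1, let-7f-1 and let-7d lie together within MIRLET7A1HG on chromosome 9, let-7a-3 and let-7b within MIRLET7BHG on chromosome 22, and let-7f-2 and miR-98 within HUWE1 on chromosome X. The let-7c hairpin lies within MIR99AHG beside miR-99a, let-7a-2 within MIR100HG beside miR-100, let-7e within SPACA6 between miR-99b and miR-125a, and let-7g within WDR82. The hairpins of let-7a-1, let-7c, let-7g and miR-98 are printed to show 3 with and 1 without GGAG between the arms. Capitals mark that motif between the arms only, so a further copy at the end of the let-7c hairpin is in lower case. The sequences are those of RefSeq.
let-7a-1 (GRCh38.p14, chr9:94175957-94176036, + strand): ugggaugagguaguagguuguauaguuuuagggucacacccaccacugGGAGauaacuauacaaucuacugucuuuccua
let-7c (GRCh38.p14, chr21:16539828-16539911, + strand): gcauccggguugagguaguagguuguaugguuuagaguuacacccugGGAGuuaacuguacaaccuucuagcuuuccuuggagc
let-7g (GRCh38.p14, chr3:52268278-52268361, - strand): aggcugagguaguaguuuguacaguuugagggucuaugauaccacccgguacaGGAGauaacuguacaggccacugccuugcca
miR-98 (GRCh38.p14, chrX:53556223-53556341, - strand): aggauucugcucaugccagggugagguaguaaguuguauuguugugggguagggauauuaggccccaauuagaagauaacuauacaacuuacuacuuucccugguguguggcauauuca

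GGAG was present anywhere in 8 of the 11 family hairpins, against 43.4% of 1562 human hairpins in RefSeq. Between the mature arms it was present in 7 of the 10 family hairpins with both arms listed, against 8.08% of 743 such hairpins. The hairpins without it are those of let-7a-3, let-7b and miR-98. The letters GUUCNANNC, known for sites that TruB1 modifies, were in 0 of the 11 family hairpins and in 1.41% of all hairpins. Both motifs were searched on the hairpin strand only, since a hairpin RNA has 1 strand. The absence of a motif says only that these letters are not in the hairpin.

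Levels are given first as raw threshold cycles (Ct), the cycle at which a well's fluorescence crosses a set level. Wells with more template cross earlier. The assays read RNA of whole cultures, so fewer cells of a kind and less RNA per cell cannot be told apart. In control samples the earliest members were let-7g, at 25.4 ± 0.643 cycles, and let-7e, at 26.6 ± 1.45 (SD, n = 2 each, since both were undetermined in control sample 2). Then came let-7b at 28.4 ± 1.21, let-7a at 29.6 ± 1.75, let-7d at 29.8 ± 1.16, let-7c at 30.2 ± 0.970, miR-98 at 30.3 ± 1.58 and let-7f at 30.6 ± 0.554 (SD, n = 3 each). Of the steps between neighbours in this order, only the 1.82 cycles from let-7e to let-7b were larger than both SDs. Wells of the same card can be set against each other directly, and let-7b crossed before let-7a, let-7c and let-7f on all 6 cards. Among the later members the neighbours in this order do not differ beyond their spread. Assays differ in efficiency, so the order is one of wells and not of molecules.

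**Figure D1:**
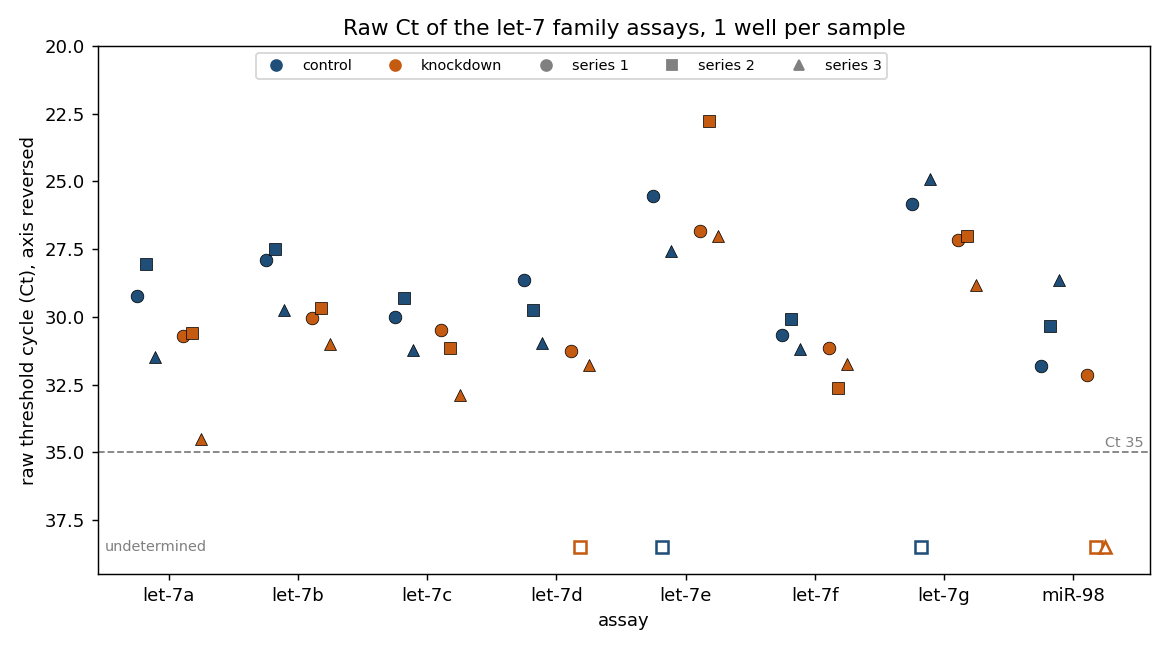
Raw Ct of the 8 assays in each sample (vertical axis in cycles, reversed so that more template is higher), blue for control and orange for knockdown, with a marker shape for each series and open markers for undetermined wells. let-7e and let-7g are the earliest members on each card that determined them, and let-7a in knockdown sample 3 is the latest determined well of the family, at 34.5.

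Ranked by Ct among the determined miRNA assays of its own card, where rank 1 is the earliest, let-7a stood at 137 of 213, 99 of 207 and 174 of 217 in control samples 1, 2 and 3. In knockdown samples 1, 2 and 3 it stood at 163 of 228, 129 of 203 and 184 of 198. It was thus in the later part of most cards, and on each knockdown card it ranked later than on the control card of the same series. The rank needs no reference assay, but it moves with how many assays a card determined. let-7g kept a rank between 65 and 96, let-7f between 144 and 175, and let-7c between 122 and 171. let-7e ranked between 68 and 102 on 4 cards and at 12 of 203 in knockdown sample 2.

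Of the 48 wells of the family, 43 were determined, all under Ct 35, and 4 of the 5 undetermined wells lay in series 2. miR-98 was determined in 4 samples and let-7d, let-7e and let-7g in 5, while the other four members, called complete below, were determined in all 6. An undetermined well is unusual for an assay as early as let-7e or let-7g. Of the assays with a mean Ct under 29, a limit chosen after these values were seen, 111 were determined in all 6 samples and 4 in 5. Those 4 are let-7e and let-7g, both undetermined in control sample 2, and miR-124a and miR-129-3p, both undetermined in knockdown sample 3. Whether the template or the well failed was not tested.

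The deposited normalized value is the ratio to U6 small nuclear RNA, which sets all assays of a card. U6 came from 2 to 4 determined wells, which spanned 0.357 to 2.77 cycles within a card. Its mean ran from 12.2 to 15.4 cycles. The 157 miRNA assays under Ct 35 in all 6 samples, called commonly detected below, averaged 25.9 to 27.7 cycles and served as a second reference. Between 188 and 226 miRNA assays a card were under Ct 35. Without any reference, the median change of all tested assays was -1.0 on the log2 scale, so raw Ct was later in knockdown for most of the card.

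let-7a was the only complete member with a lower level in knockdown within all 3 series against both references. The control wells of series 1, 2 and 3 crossed at 29.2, 28.0 and 31.5 cycles, and the knockdown wells at 30.7, 30.6 and 34.5. It was later in knockdown within each series, while the groups overlapped, since control sample 3 was later than knockdown samples 1 and 2. On the log2 ratio to U6 the levels were -14.49, -14.08 and -19.33 in control and -15.84, -15.15 and -21.25 in knockdown, and both samples of series 3 lay far below the rest. The difference within series 1, 2 and 3 was -1.35, -1.07 and -1.91. Against the commonly detected assays it was -1.18, -1.43 and -1.32, a mean of -1.31 ± 0.13 (SD, n = 3 series).

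Across all 6 samples the log2 fold change of let-7a on the ratio to U6 was -1.44 (SE 1.502, 95% confidence interval -4.41 to 1.52), or 2.72-fold lower. It did not pass the test (limma, adjusted p = 0.999 over 195 assays). Fitted with a replicate block for the series, the same change had an SE of 0.43, an unadjusted p of 0.0119 and an adjusted p of 0.728. Counted from the lowest change it ranked 4 of 195 without the block and 7 of 189 with it. Without the block, leaving out knockdown sample 3 gave 0.48, in a fit where the median of all 181 assays was also above 0, at 0.76. With the block, leaving out series 1, 2 or 3 gave -1.49, -1.63 or -1.21.

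let-7b crossed at 27.9, 27.5 and 29.8 cycles on the control cards of series 1, 2 and 3 and at 30.0, 29.7 and 31.0 on the knockdown cards. Only control sample 3 reached into the knockdown range. Relative to U6 the difference was -1.99, -0.70 and -0.14 in series 1, 2 and 3, so most of it came from series 1. Against the commonly detected assays it was -1.82, -1.05 and 0.46, which turns the sign in series 3. The fitted log2 fold change of -0.94 (SE 1.48) did not pass the test (limma, adjusted p = 0.999). Leaving out knockdown sample 3 gave 0.077, below the all-assay median of 0.76 in that fit, at rank 33 of 181 from the lowest.

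let-7c had the smallest mean difference of the 3 members that were lower than control relative to U6 within all series. Its control wells crossed at 30.0, 29.3 and 31.2 cycles in series 1, 2 and 3, and its knockdown wells at 30.5, 31.1 and 32.9. The groups overlapped. Relative to U6 the difference was -0.32, -0.36 and -0.56 in series 1, 2 and 3, against medians of -0.17, 0.30 and -0.49 over all assays of those series. Against the commonly detected assays it was -0.15, -0.72 and 0.03. The fitted change of -0.42 (SE 1.48) did not pass the test, and leaving out control sample 1, control sample 2 or knockdown sample 3 turned it to 0.23, 0.20 or 0.91. The medians of all assays in those fits were 0.58, -0.12 and 0.76.

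let-7f, encoded beside let-7a on chromosome 9, had no common direction relative to U6. In series 1, 2 and 3 the raw Ct on control cards was 30.7, 30.1 and 31.2, and on knockdown cards 31.1, 32.6 and 31.8. The lowest knockdown value lay just below the highest control value. The difference relative to U6 was -0.34 in series 1, -1.06 in series 2 and 0.52 in series 3. The fitted change was -0.29 (SE 1.46), and leaving out the same samples turned it to 0.25, 0.17 or 0.30. In the blocked fit, leaving out series 2 turned it to 0.091.

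let-7d, from the same chromosome 9 transcript, was undetermined in knockdown sample 2. Its determined Ct values were 28.7, 29.8 and 31.0 in control and 31.3 and 31.8 in knockdown samples 1 and 3. These did not overlap in raw Ct, as in 14.9% of the 161 complete assays. No such share was computed over assays with an undetermined well, where fewer values make it easier. Relative to U6 the groups overlapped, and the difference was -2.48 in series 1, the third lowest of 200 assays there, but 0.30 in series 3. The fitted log2 fold change was -1.29 (SE 1.65) without the block and -1.09 (SE 0.78) with it, from the 2 complete series.

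let-7g, undetermined in control sample 2, crossed at 25.8 and 24.9 cycles on the control cards of series 1 and 3, and at 27.2, 27.0 and 28.8 on the knockdown cards of series 1, 2 and 3. The determined wells of the groups did not overlap in raw Ct, the knockdown wells being later. Groups did not overlap in raw Ct in 14.9% of the 161 complete assays, which have more wells. By raw Ct 91.8% of the 195 tested assays had a later mean in knockdown. Relative to U6 the levels were -11.10 and -12.77 in control and -12.29, -11.57 and -15.56 in knockdown, and these overlapped. Within series 1 and 3 the difference was -1.19 and -2.79, ranks 19 of 200 and 5 of 188 from the lowest. The fitted log2 fold change was -1.21 (SE 1.64) without the block, and -1.99 (SE 0.63, unadjusted p = 0.0189, limma adjusted p = 0.728) with it. The blocked value rests on series 1 and 3 alone, since the knockdown well of series 2 has no control partner. Without the block and without knockdown sample 3 the fitted change was 0.0038, against the all-assay median of 0.76.

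let-7e was the exception in direction, and its value rested on 1 well. Ct was 25.5 and 27.6 in control samples 1 and 3, undetermined in control sample 2, and 26.8, 22.8 and 27.0 in knockdown samples 1, 2 and 3. The well of knockdown sample 2 crossed 2.75 to 4.80 cycles before the other 4. Within series 1 the difference relative to U6 was -1.14, and within series 3 it was 1.66, so the complete series disagreed in sign. The fitted log2 fold change was 2.10 (SE 1.67, adjusted p = 0.999 in limma) without the block and 0.26 (SE 0.78) with it, since the block sets aside the early well, which has no control partner. Without that sample and with no block it was also 0.26.

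**Figure D2:**
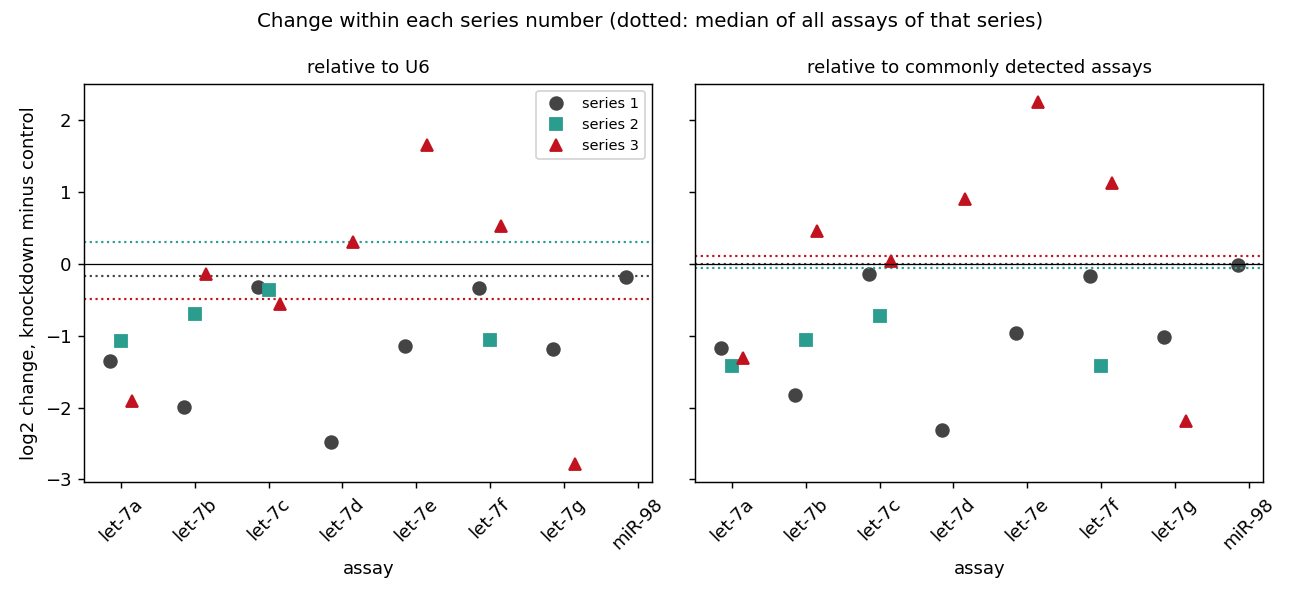
Log2 change of each assay, knockdown minus control, within each series, relative to U6 (left) and to the commonly detected assays (right); dotted lines give the median of all assays of that series. let-7a lies between -1.91 and -1.07 on the left and between -1.43 and -1.18 on the right, while let-7d, let-7e and let-7f change sign between series in both panels and let-7b and let-7c in the right one.

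Of the 7 members tested, 6 had a lower mean in knockdown relative to U6 and let-7e a higher one. A lower mean was found in 59.5% of all 195 tested assays. The median log2 fold change was -0.94 over the 7 members and -0.10 over all tested assays. Relative to U6 the member median within series 1, 2 and 3 was -1.17, -0.88 and -0.14. Medians of all assays there were -0.17, 0.30 and -0.49, so in series 3 the member median was the higher one. Against the commonly detected assays 8 of 8 members were lower in series 1 and 4 of 4 in series 2. In series 3 only 2 of 7 were, with a median of 0.46 against 0.11 over all assays. The count of 6 lower members was the same with the median of the U6 wells, where 59% of all assays were lower, and with the commonly detected assays, where 46.2% were. It was 6 with raw Ct as well, a count near its background of 91.8%. Putting undetermined wells at Ct 40 gave 6 of 8 (63.9% of all assays), with let-7g turned to 3.49. In that fit let-7e moved from 2.10 to 6.40 and let-7d from -1.29 to -3.65, sizes that depend on the value put in. Leaving out knockdown sample 3 gave 0 of 6 members, and leaving out control sample 1 gave 3 of 5. In each of these fits 14.9% of all 181 assays were lower, so the whole card was shifted upward.

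None of the 7 members passed an adjusted p of 0.05 in limma, as in 0% of all 195 assays, and 0 had an unadjusted p under 0.05 (0% of all assays). With the replicate block 0 members passed the adjusted p (0% of 189 assays). In that fit 10 assays (5.29%) had an unadjusted p under 0.05, and 5 of them (2.65%) were lower in knockdown. let-7a was among these 5, and so was let-7g, from 2 complete series. No replicated test therefore calls a member changed after adjustment.

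**Figure D3:**
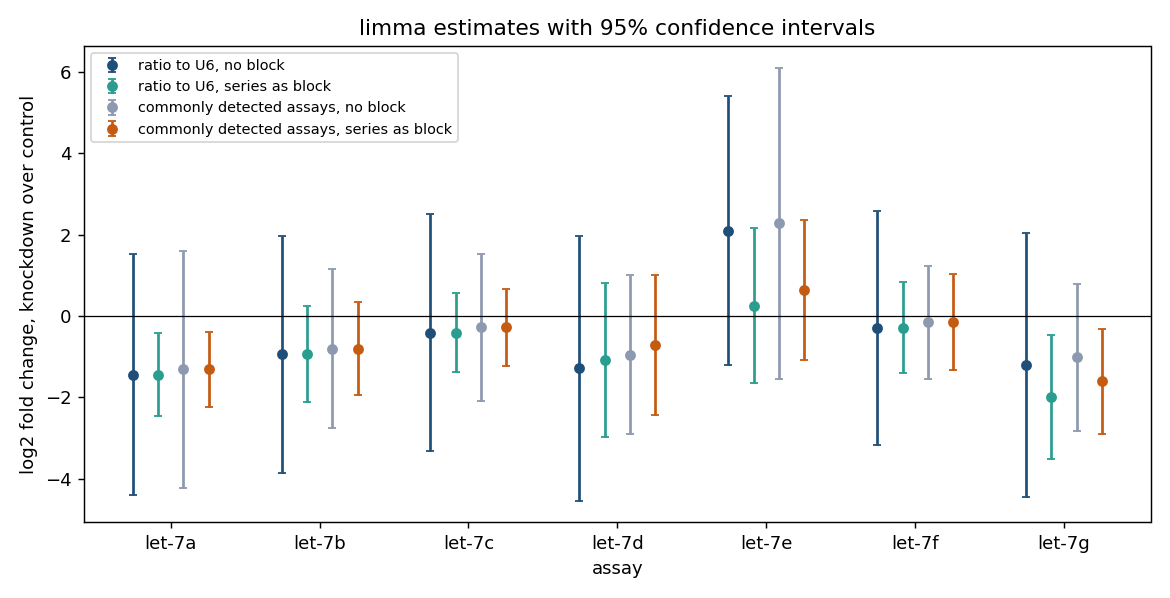
Log2 fold change of the 7 tested members, knockdown over control, with 95% confidence intervals from limma, for both references and with and without the series as a block. Intervals without the block all include 0, and with the block those of let-7a and let-7g lie below 0 before any adjustment for the number of assays. With the block, let-7d, let-7e and let-7g rest on 2 complete series.

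Counted by series, 3 of the 4 members determined in every sample (let-7a, let-7b and let-7c) were lower relative to U6 in all 3 series, as were 19.3% of 161 complete assays. Against the commonly detected assays 1 of the 4, let-7a, was lower in all 3 series, against 11.8% of complete assays. By raw Ct all 4 were later in knockdown in all 3 series, as were 61.5%. None of the 4 had groups that did not overlap relative to U6 (0% of complete assays), against the commonly detected assays (3.11%) or in raw Ct (14.9%).

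The difference between a pair of wells on the same card needs no reference. The 4 complete members give 6 such pairs, and the clearest was let-7a minus let-7c, whose targets differ by A19G alone. On the control cards of series 1, 2 and 3 it was -0.787, -1.26 and 0.264 cycles, and on the knockdown cards 0.241, -0.551 and 1.61. let-7a thus crossed later relative to let-7c in every knockdown sample than in its control, by 1.03, 0.707 and 1.35 cycles, a mean of 1.03 ± 0.321 (SD, n = 3 series).

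The group values of this pair still overlapped. An exact two-sided permutation test gave p = 0.3 (adjusted p = 0.9 over 6 pairs), and 3 against 3 samples cannot give less than 0.1. An exact sign-flip test within series gave p = 0.25, the smallest possible with 3 series. let-7a minus let-7f was also higher in knockdown in every series, by 1.01, 0.0072 and 2.43 cycles. The other four pairs changed sign between series. Across the 6 pairs the exact p ran from 0.3 to 0.9.

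**Figure D4:**
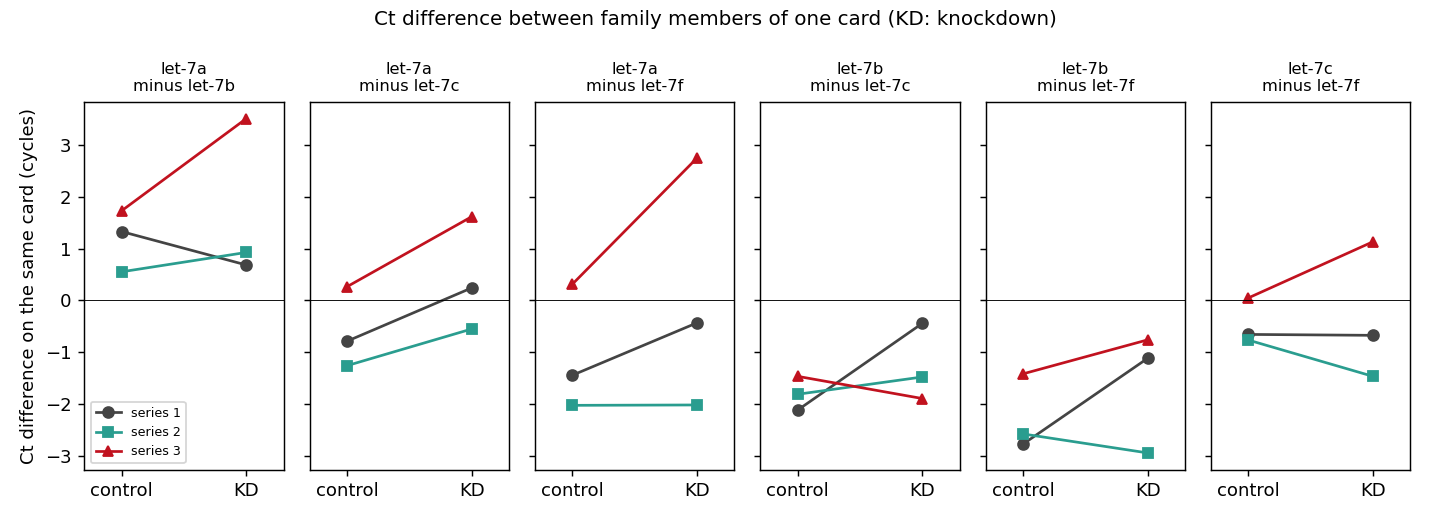
Ct difference between 2 members on the same card, in cycles, with a line from the control to the knockdown (KD) sample of each series. The 3 lines of let-7a minus let-7c all rise, by 0.707 to 1.35 cycles, whereas those of let-7a minus let-7b, let-7b minus let-7c, let-7b minus let-7f and let-7c minus let-7f point in different directions.

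The miRNAs made from the same primary transcripts as let-7 members were miR-99a, miR-99b and miR-100, which share a seed of their own, and miR-125a-5p and miR-125b. Of these 5, 0 had an unadjusted p under 0.05 in limma without the block, as in 0% of all 195 tested assays. Their median log2 fold change relative to U6 was -0.19, with all 5 below 0. Over all tested assays it was -0.10, with 59.5% below 0. Against the commonly detected assays the median of the 5 was -0.05, with 3 below 0. There all tested assays had a median of 0.04, with 46.2% below 0. Within each series let-7c changed by about as much as miR-99a, its neighbour on chromosome 21. The Ct of let-7c minus miR-99a was 3.90, 2.57 and 3.63 on the control cards of series 1, 2 and 3 and 3.96, 2.69 and 3.89 on the knockdown cards, a change of 0.146 ± 0.105 cycles (SD, n = 3 series). For let-7c minus miR-125b the change was 0.107, 0.636 and -0.499 cycles in series 1, 2 and 3. How many pairs of assays on the card stay as close was not computed, and miR-99a was not among the 2 outside assays most like let-7c.

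The miRNAs encoded with let-7a-2 on chromosome 11 are miR-100 and miR-125b. The Ct of let-7a minus that of miR-125b was higher in knockdown by 1.13, 1.34 and 0.851 cycles in series 1, 2 and 3, and minus that of miR-100 by 1.13, 2.03 and 1.03. The shares of the let-7a and miR-125b signals that come from this locus are not known, since each has at least one further locus. let-7a was also lower against the commonly detected assays within every series, so the rise against miR-125b and miR-100 need not be particular to them. How many assays on the card show such a rise was not computed. For let-7e, the Ct minus that of its chromosome 19 neighbour miR-99b changed by 0.973 cycles in series 1 and by -1.80 in series 3. In knockdown sample 2 the Ct difference itself was -4.66 cycles, and on the other cards it ran from -0.344 to 1.45.

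Another 3 miRNAs, miR-107, miR-143 and miR-200c, are known to carry the GGAG motif near the loop. miR-143 was determined in 2 control samples and no knockdown sample and was not tested. miR-107 was at -0.58 (SE 1.46) and miR-200c at -0.02 (SE 1.46) on the log2 scale relative to U6. Neither had an unadjusted p under 0.05 in limma without the block, and 0% of all 195 tested assays did.

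miR-98, encoded beside let-7f-2, was the member with most undetermined wells. The control wells of series 1, 2 and 3 crossed at 31.8, 30.4 and 28.7 cycles. The knockdown well of series 1 crossed at 32.1, and the wells of knockdown samples 2 and 3 were undetermined. It was thus under Ct 35 in 3 of 3 control samples and 1 of 3 knockdown samples (Fisher's exact test, two-sided, p = 0.4; smallest possible p = 0.1). Detection in 3 control samples and at most 1 knockdown sample was seen in 3.37% of the 178 assays under Ct 35 in all control samples. In series 1, the only one with both wells, miR-98 changed by -0.19 relative to U6 and by -0.02 against the commonly detected assays.

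The knockdown cards that lack miR-98 held 42 and 44 assays with a Ct above 32.1, the latest at which miR-98 was seen. Their last determined wells were at 37.3 and 37.1. The control level relative to U6 was -17.07, -16.38 and -16.50. At Ct 35 the same scale stood at -19.55 and -21.75 on those cards. Wells of other members were undetermined too, let-7d in knockdown sample 2 and the earlier let-7e and let-7g in control sample 2. Why the miR-98 wells were undetermined was not tested. With a limit of Ct 32 the count was 3 of 3 against 0 of 3 (Fisher's exact test, two-sided, p = 0.1). That limit falls between the latest control well, at 31.8, and the only knockdown well, at 32.1, both of series 1. The share of all assays that split this way at Ct 32 was not computed. Placing undetermined wells at Ct 40 gave a fitted change of -6.20 (SE 2.29, limma adjusted p = 0.999), a size set by the value put in and not measured.

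let-7a was the most variable of the 4 complete members. Relative to U6 the SD of let-7a was 2.92 in control and 3.34 in knockdown (n = 3 each), against medians of 1.38 and 1.60 over the 161 complete assays. Against the commonly detected assays it was 2.05 and 2.00, where the medians were 0.57 and 0.77. let-7f was the least variable complete member, with 0.92 and 0.47 on that scale. The lowest samples of let-7a on that scale were those of series 3, at -5.55 and -6.87.

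Likeness of pattern was measured as the root mean square difference between the Ct deviations of 2 assays from their own means over the 6 samples. For let-7a the closest assays outside the family were miR-223 (0.642 cycles) and miR-96 (0.827), and let-7c was at rank 4 of 160, at 0.931. For let-7b the closest of all was let-7c, at 0.539, and outside the family miR-455-3p (0.702) and miR-148b (0.712). For let-7c these were miR-455-3p (0.346) and miR-487a (0.396), and let-7a was at rank 53 of 160. For let-7f they were miR-301 (0.297) and miR-422a (0.310). let-7a was at rank 151 of 160 counted from let-7f, at 1.67 cycles, and let-7f at rank 48 counted from let-7a. The median over all assays was 0.854 cycles for let-7f and 1.89 for let-7a, so a rank depends on the side it is counted from.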

How the data were processed

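The members and lists were chosen with earlier results of these data known. The deposited raw values are scores in cycles, the Ct of each well; per the labels, 1000 ng of RNA was reverse transcribed with Megaplex Pool A primers and run for 40 cycles on TaqMan cards. Threshold and baseline settings are not given in the sources used here. The deposited ratio equals 2 to the power of mean U6 Ct minus assay Ct, recovered to within 6.8e-06 on the log2 scale. Each assay has 1 well per sample, without counts, so the number of cards limits the precision.

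Log2 ratios were fitted in limma 3.58.1 (R 4.3.3; lmFit, eBayes, two-sided, group only) with Benjamini-Hochberg adjustment over all assays with a Ct under 35 in at least 3 samples and at least 2 determined wells in each group. Undetermined wells were missing. Exact tests were run in Python 3.11.15. The script was tested on simulated data. All 8 members, both lists of related miRNAs and the 2 assays most like each complete member were named by rule. Sequences, hairpin positions and spanning genes are from the RefSeq tables (GRCh38.p14); 1 of the 2 loci known for miR-125b, MIR125B1, was used.

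Same-numbered samples correlated in their deviations from the group means (r = 0.416, 0.527 and 0.625 across 161 assays, which are not independent), all above 0.1. Differently numbered pairs ran from -0.536 to 0.249. Deviations from a group mean cancel out within the group, so these correlations are tied to those of same-numbered samples. The contrast between them is therefore partly built in. On this check, and with no label behind it, the series number was treated as a pairing in the within-series differences and in the replicate block. The main fit had group only and left the pairing out. Alternatives changed the reference, the treatment of undetermined wells, the Ct limit, the replicate block and the samples used. The authors' table of fold changes was not used, as its values follow from the ratios.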

Additional observations from a re-analysis of the deposited data

How the results depend on the processing

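No member passed an adjusted p of 0.05 in limma under any of the 17 alternatives run. Over all assays the count was 0 in 16 of them and 6 with the replicate block without series 3, where 4 members were tested. The replicate block left the count of lower members at 6 and their median at -0.94, and changed no call. The median of the tested members moved to -1.73 with raw Ct, a setting in which all assays together had a median of -1.0. With the block and without series 1 it was -0.44, over 4 members. Of 68 member values under alternatives that kept all samples or dropped a series, 2 reversed. let-7g was 3.49 when undetermined wells were put at Ct 40, which gives control sample 2 a low value, and let-7f was 0.091 with the block and without series 2.

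With single samples left out, and no block, the count of lower members ran from 0 to 6 and their median from -2.36 to 0.39. Of 36 member values 9 reversed, 5 of them without knockdown sample 3 and 2 each without control samples 1 and 2. In these fits the median of all assays was 0.76, 0.58 and -0.12, against -0.10 with all samples, so the first 2 settings moved the whole card. let-7a ranged from -3.13 to 0.48, let-7b from -2.36 to 0.077, let-7c from -1.67 to 0.91, let-7f from -1.30 to 0.30, and let-7g from -1.99 to 0.0038. let-7d (-2.61 to -0.16) and let-7e (0.26 to 3.48) did not reverse in the 4 fits that the filter on determined wells allowed for each, 1 of which left out only an undetermined well. Among within-card pairs, let-7a minus let-7c kept its sign (0.439 to 1.52 cycles). Those of let-7a minus let-7b (-0.398 to 1.01), let-7a minus let-7f (-0.173 to 2.21) and let-7c minus let-7f (-0.611 to 0.687) did not. The p for miR-98 detection ran from 0.1 to 0.4. The cause was not tested. Removing the Ct limit added no assay, and with 1 well per assay and sample a failed well and low template cannot be told apart.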
